A study of Homo sapiens with 12 samples.

Results

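The 5 genes described here, COL1A1, SERPINH1, TNC, THBS4 and COMP, encode extracellular matrix proteins of mesenchyme and the chaperone that folds collagen. They were taken by gene name from a table of 666 genes, 1 row each, in cells that received an MSX1 plasmid or an empty vector. COL1A1, SERPINH1, TNC and COMP had higher values in all 9 libraries with an MSX1 plasmid than in any Vector library, and THBS4 had lower values in all 9. Such a lack of overlap with Vector was common in this table, at 91.0% of the genes tested for wild-type MSX1, 67.2% for the K139R mutant and 74.5% for K139Q. Among the MSX1 plasmids, 0 of the 5 passed the adjusted threshold, where 4.32% of all genes did in K139R against MSX1, 0.938% in K139Q against MSX1 and 0.188% in K139Q against K139R.

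The labels name the cells as HEPM, a human embryonic palatal mesenchymal cell line, and the identifiers in the table are human, whereas the study's methods name MEPM, mouse palatal mesenchymal cells. They were transfected with a plasmid and labelled with a time of 8 h. The Vector group received empty plasmid, the MSX1 group wild-type MSX1, the K139R group MSX1 with arginine in place of the lysine that the name gives, which cannot be acetylated, and the K139Q group MSX1 with glutamine there, which resembles acetyl-lysine. The last 3 are called the plasmid groups. The titles, genotypes and table columns name these mutants alike, but the library names of both groups give substitutions at another residue, a conflict that could not be settled here and that bears on which mutant each value belongs to. The study describes its MSX1 plasmids as GFP fusions, and all 4 groups carried the cells' own MSX1 gene. Each group had 3 libraries of polyadenylated RNA, and the labels give the replicate number as a batch, so each batch held 1 library of each group. The study's methods call the replicates of a group biological, and neither they nor the labels say whether these were separate cultures, so the tests measure the spread between libraries.

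The table deposited for these libraries holds only genes that the authors had called between MSX1 and Vector, and 480 of the 666 were higher in MSX1 by mean. All 5 genes were therefore selected to differ in that comparison, and the K139R and K139Q comparisons with Vector share its Vector libraries. Values are given on the expression scale that was recovered from the deposited z-scores. Its unit is not stated and read depth is unknown, so a level is compared between libraries, and a gene's rank in a library is used only to describe the scaling. On this scale the MSX1 mean was 2.45-fold that of Vector for COL1A1, 2.26-fold for COMP, 4.49-fold for SERPINH1 and 5.50-fold for TNC. For THBS4 the Vector mean was 3.25-fold that of MSX1. The changes of COL1A1, COMP and THBS4 thus fell short of the fold-change cut-off that the study states for its calls. Those of SERPINH1 and TNC exceeded it. The reason for this mismatch was not tested. Of the 666 genes, 533 had a mean value of at least 1 in at least 1 group and were tested, including all 5 described here. A gene with a mean below 1 in Vector, as COMP had at 0.603, was tested only because a plasmid group reached 1. This favours a difference from Vector. Of the 15 palatal mesenchyme markers looked up, 0 were in the table, so the labelled cell type could not be checked. The 2 epithelial markers in the table of 9 looked up summed to 2.29 to 2.71 in Vector, 7.0 to 7.35 in MSX1, 6.19 to 6.95 in K139R and 6.17 to 6.90 in K139Q. The 3 neuronal markers of 9 summed to 14.4 to 18.3 in Vector, 51.7 to 74.9 in MSX1, 40.4 to 76.0 in K139R and 57.9 to 91.1 in K139Q. The 1 blood marker of 7 in the table, CD68, was 0.24 to 0.72 in Vector, 1.97 to 2.86 in MSX1, 1.18 to 3.4 in K139R and 2.30 to 2.67 in K139Q. The 1 chondrocyte marker of 7 in the table, ACAN, overlapped between groups and was too low to test. It was 0.05 to 0.56 in Vector, 0.28 to 0.4 in MSX1, 0.24 to 0.64 in K139R and 0.31 to 0.75 in K139Q. The part of these markers in the results was not tested, and in bulk RNA more cells of a type and more RNA per cell cannot be told apart.

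Type I collagen is a triple helix of COL1A1 and COL1A2 chains that gives connective tissue and bone their tensile strength. SERPINH1, also called HSP47, is a chaperone of the endoplasmic reticulum that binds procollagen helices until they leave for the Golgi, and its gene is a classic target of the heat shock factor HSF1. Tenascin C, the product of TNC, is an adhesion-modulating glycoprotein of embryonic mesenchyme and wounds. THBS4 and COMP encode pentameric thrombospondins, calcium-binding proteins of tendon, muscle and cartilage matrix. MSX1 is a homeodomain transcription factor, mostly known as a repressor, that is needed in the palate and tooth mesenchyme.

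By Ensembl identifier in GENCODE v29 (GRCh38), COL1A1 (ENSG00000108821) lay on the minus strand at chr17:50183289-50201632 with up to 51 exons in a transcript. SERPINH1 (ENSG00000149257) lay on the plus strand at chr11:75562056-75572783 with up to 6 exons, and TNC (ENSG00000041982) on the minus strand at chr9:115019578-115118257 with up to 28. THBS4 (ENSG00000113296) lay on the plus strand at chr5:79991311-80083287 with up to 22 exons and COMP (ENSG00000105664) on the minus strand at chr19:18782773-18791314 with up to 19. The build used for the deposited table is not given in the sources used here.

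The 250 bases before each RefSeq start (GRCh38.p14) were searched for sites of HSF1 and of MSX1 itself, and 4 of the 5 genes, all but COL1A1, had a window in the RefSeq table. A heat shock element is a run of inverted GAA and TTC units, searched as TTCNNGAANNTTC or its reverse complement GAANNTTCNNGAA, each of which contains the shorter motifs TTCNNGAA and GAANNTTC. The MSX1 homeodomain site was searched as TAATTG and its core as TAAT, both on either strand, the core being part of the longer site. Shown are the long heat shock element of SERPINH1 and the core matches of TNC and of the first start of THBS4. Matches at the second start of THBS4 are given below without sequence, and COMP had no match. Capitals mark the match, and the position is counted back from the RefSeq start, which is preceded by base -1.
SERPINH1, chr11:75562169-75562198, plus strand, -84 to -55: ttccaactTTCCAGAAGTTTCtcgggacgg
TNC, chr9:115118242-115118271, minus strand, -114 to -85: agggctgttccttTAATtcgccaactgaaa
TNC, chr9:115118191-115118220, minus strand, -63 to -34: ggcgaggcgtcccATTAcagaggaaggagc
THBS4, chr5:79991270-79991299, plus strand, -62 to -33: gtacttttcctccTAATttccggcacgtga

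SERPINH1 carried the 3-unit heat shock element at -76 to -64 of the first of its 2 starts in the table. The window of its second start held none of the motifs, and no window of TNC, THBS4 or COMP held a 3-unit element. In all, 0.441% of 35116 RefSeq windows held a 3-unit element in either orientation. The SERPINH1 match falls inside the first exon of GENCODE transcripts that start further upstream. TNC had the TAAT core at -101 and, on the other strand, at -50, and THBS4 had it at -49 of its first start. At the second start of THBS4 the core matched at -238 and -212 and the short motif GAANNTTC at -229. By the GENCODE coordinates given above, the TNC match at -50 and the matches at the second start of THBS4 also lay inside the gene. The TNC match at -101 lay across the GENCODE start of that gene. The core occurred in 47.4% of all windows and TAATTG in 6.7%, TTCNNGAA in 6.62% and GAANNTTC in 5.78%, and no window of the 4 genes held TAATTG. A match describes letters in a window and not binding, which was not measured.

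The MSX1 transcript was measured first, as a check of the labels. It was 20.28, 17.15 and 18.65 in Vector replicates 1 to 3, and 6553.80, 4672.09 and 6959.42 in MSX1. In K139R it was 13561.34, 7210.92 and 5811.91, and in K139Q it was 8560.24, 13893.25 and 8006.32. The plasmid and the endogenous gene were counted together. All 9 plasmid libraries lay far above Vector, and K139Q lay above MSX1 in every library, while K139R overlapped both.

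SERPINH1 was 103.66, 99.48 and 91.00 in Vector and 465.18, 431.88 and 422.85 in MSX1. It was 458.00, 344.75 and 271.89 in K139R, and 477.43, 594.71 and 374.67 in K139Q. The lowest plasmid library, a K139R library, was still above every Vector library, and the 3 plasmid groups overlapped one another. The means ± SD (n = 3) were 98.0 ± 6.45 in Vector, 440.0 ± 22.3 in MSX1, 358 ± 93.8 in K139R and 482 ± 110.1 in K139Q. These means were 4.49-fold, 3.65-fold and 4.92-fold that of Vector. Among the 5 genes SERPINH1 had the smallest relative spread within MSX1, with an SD of 5.07% of the mean, and 26.2% in K139R.

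COL1A1, the gene of the main chain of type I collagen, was 5.14, 4.19 and 3.60 in Vector and 11.48, 7.75 and 12.47 in MSX1. It was 8.69, 7.66 and 5.29 in K139R, and 7.60, 11.36 and 8.68 in K139Q. The groups with a plasmid did not overlap Vector, although the lowest K139R library, at 5.29, lay next to the highest Vector library, at 5.14. The means were 4.31 ± 0.777, 10.6 ± 2.49, 7.21 ± 1.74 and 9.21 ± 1.94 in Vector, MSX1, K139R and K139Q (SD, n = 3 each). The plasmid groups were 2.45-fold, 1.67-fold and 2.14-fold above Vector by mean.

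TNC, whose product loosens cell adhesion to fibronectin, was 2.40, 2.19 and 1.59 in Vector and 12.62, 9.55 and 11.80 in MSX1. It was 11.42, 12.69 and 13.82 in K139R, and 10.16, 7.36 and 7.71 in K139Q. Every K139R library was above every K139Q library, and MSX1 overlapped both. The means were 2.06 ± 0.420, 11.3 ± 1.59, 12.6 ± 1.20 and 8.41 ± 1.53 in the same order, or 5.50-fold, 6.14-fold and 4.08-fold that of Vector.

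THBS4, the thrombospondin of tendon and muscle, was 5.75, 6.06 and 5.79 in Vector and 1.61, 1.59 and 2.22 in MSX1. It was 2.96, 3.92 and 2.97 in K139R, and 4.55, 2.67 and 2.23 in K139Q. Every Vector library was above every plasmid library, and every K139R and K139Q library was above every MSX1 library, by 0.01 in the closest case. The means were 5.87 ± 0.169, 1.81 ± 0.358, 3.28 ± 0.551 and 3.15 ± 1.23, so Vector was 3.25-fold, 1.79-fold and 1.86-fold above MSX1, K139R and K139Q. THBS4 was the only one of the 5 genes whose mean was lower than Vector in every plasmid group.

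COMP, the cartilage thrombospondin, ranged from 0.52 to 1.78 over the 12 libraries. It was 0.52, 0.59 and 0.70 in Vector, 1.18, 1.64 and 1.27 in MSX1, 1.32, 1.08 and 0.78 in K139R, and 1.26, 1.78 and 1.38 in K139Q. The 9 plasmid libraries lay above Vector, the closest being a K139R library at 0.78 against a Vector library at 0.70. The means were 0.603 ± 0.0907, 1.36 ± 0.244, 1.06 ± 0.271 and 1.47 ± 0.272, or 2.26-fold, 1.76-fold and 2.44-fold that of Vector.

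**Figure D1:**
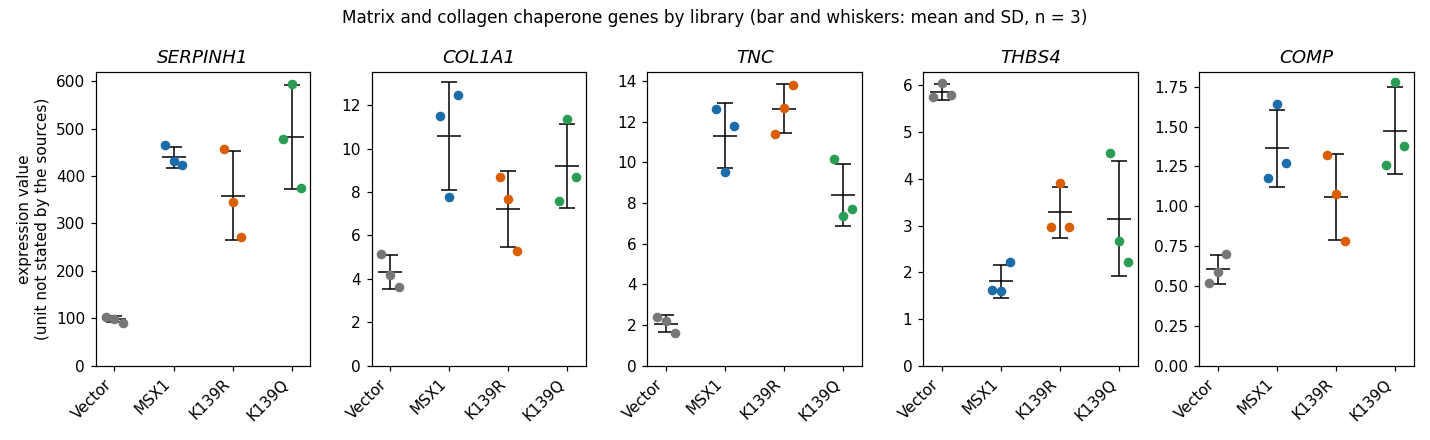
Expression value (vertical axis, unit not stated by the sources, starting at 0) of each gene in the 12 libraries, with points for libraries in replicate order and bars for the group mean and SD (n = 3). SERPINH1, COL1A1, TNC and COMP were higher in each of the 9 plasmid libraries than in the 3 Vector libraries, and THBS4 was lower.

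The first question was whether MSX1 changed these genes relative to empty plasmid. In the limma fit on log2(value + 1), 5 of 5 passed an adjusted p of 0.05 in MSX1 against Vector, where 89.9% of all 533 genes passed of a table selected on that comparison. Of the 5, 4 were higher (67.7% of all genes) and 1, THBS4, was lower (22.1%). SERPINH1 differed by 2.16 ± 0.21 on the log2(value + 1) scale (± SE here and below, limma adjusted p = 5.7e-06) and TNC by 2.01 ± 0.18 (adjusted p = 2.5e-06). These were the 8th and 13th highest of the 533 differences. COL1A1 differed by 1.11 ± 0.23 (adjusted p = 0.00086), the 109th highest. COMP, which met the filter only through the plasmid groups, differed by 0.56 ± 0.17 (adjusted p = 0.0080), the 338th highest. THBS4 differed by -1.30 ± 0.20 (adjusted p = 0.00023), the 9th lowest. The median difference was 1.11 over the 5 genes and 0.77 over all genes tested, so COMP stood below the median of the table.

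In K139R against Vector, 4 of 5 passed, where 65.5% of all genes did. Of these, 3 were higher (60.0% of all genes) and 1 was lower (5.44%). TNC had the largest difference of the 5, 2.16 ± 0.18 (limma adjusted p = 1.7e-06), followed by SERPINH1 with 1.83 ± 0.21 (adjusted p = 2.4e-05). THBS4 differed by -0.69 ± 0.20 (adjusted p = 0.011). COL1A1 differed by 0.62 ± 0.23 (adjusted p = 0.028), close to the median of all genes at 0.65, and its call was lost without Vector replicate 2 (0.60, adjusted p = 0.065), Vector replicate 3 (0.52, adjusted p = 0.10), K139R replicate 1 (0.49, adjusted p = 0.097) or K139R replicate 2 (0.57, adjusted p = 0.078). COMP did not pass, with a difference of 0.35 and a 95% interval of -0.01 to 0.71 (adjusted p = 0.077), although its groups did not overlap. Without K139R replicate 3 it passed (0.46, adjusted p = 0.040).

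In K139Q against Vector, 5 of 5 passed, where 73.4% of all genes did, with 4 higher (64.0%) and 1 lower (9.38%). SERPINH1 differed by 2.26 ± 0.21 (limma adjusted p = 2.8e-06), TNC by 1.62 ± 0.18 (adjusted p = 1.7e-05) and COL1A1 by 0.94 ± 0.23 (adjusted p = 0.0029). COMP differed by 0.62 ± 0.17 (adjusted p = 0.0055) and THBS4 by -0.77 ± 0.20 (adjusted p = 0.0052). The median over the 5 genes was 0.94 against 0.69 over all genes. With 3 libraries against 3, the exact two-sided permutation test cannot give a p below 0.1, and it gave 0.1 for each of the 5 genes in each comparison with Vector.

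**Figure D2:**
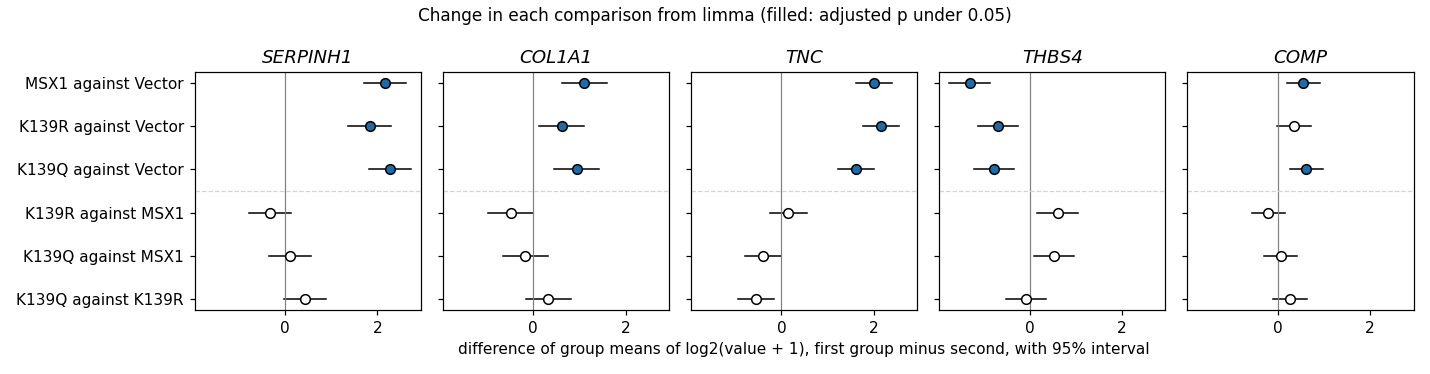
Difference of group means of log2(value + 1), first group minus second, with its 95% interval from limma, for the 5 genes in 6 comparisons (rows). Filled points, adjusted p under 0.05, occur in the 3 comparisons with Vector, where COMP in K139R (0.35) is the open point, and all points between MSX1 plasmids are open.

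The fold changes with Vector moved when the libraries were scaled in another way or when a trend with base composition was removed. Between libraries, the slope of log2 value on GC content over the genes tested was -0.29 to -0.23 per 10% GC in Vector, 0.15 to 0.30 in MSX1, -0.32 to 0.23 in K139R and -0.02 to 0.24 in K139Q. COMP had the highest GC content of the 5 genes, 64.7% of its longest transcript, followed by COL1A1 with 61.1%. SERPINH1, THBS4 and TNC had 56.5%, 54.2% and 54.0%, and the median of the genes tested was 57.0%. With the GC trend removed from each library, COMP no longer differed from Vector at the threshold in MSX1 (0.08, limma adjusted p = 0.64) or K139Q (0.26, adjusted p = 0.11). The other 4 genes passed in all 3 comparisons, where 70.2%, 65.3% and 67.1% of the 510 genes with a GC value passed in MSX1, K139R and K139Q. The slopes of Vector did not overlap those of MSX1 or K139Q. A trend with GC and the effect of the plasmid cannot be told apart in these comparisons. When every library was brought to the same distribution by quantile normalization, the median difference over all genes fell from 0.77 to 0.31 in MSX1, from 0.65 to 0.13 in K139R and from 0.69 to 0.17 in K139Q. The table was selected on MSX1 against Vector, and 480 of its 666 genes were higher in MSX1, so this scaling also removes part of that selected shift. A call lost under it cannot tell a scaling effect from the loss of that shift. TNC and THBS4 passed in all 3 comparisons under that scaling, and COL1A1 in MSX1 alone, where 61.9% of all genes passed in MSX1, 34.3% in K139R and 43.3% in K139Q. SERPINH1 became 0.00 in all 3 by construction, since it ranked 6th of the 533 genes in each of the 12 libraries, so a scaling by rank carries no information on it.

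**Figure D3:**
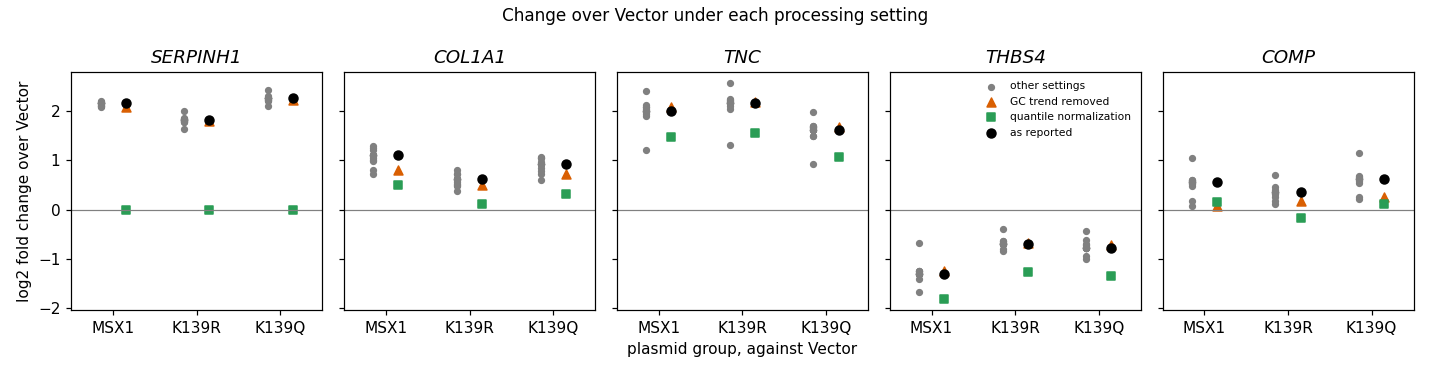
Log2 fold change over Vector (vertical axis) of the 5 genes for each plasmid group under every processing setting, with the reported value in black, quantile normalization as green squares, removal of the GC trend as orange triangles and the rest in grey. THBS4 lay below 0 and TNC above 0 in every setting, COMP fell to 0.08 in MSX1 with the GC trend removed, and SERPINH1 lay at 0 only under quantile normalization.

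The second question was whether the state of that lysine mattered, for which K139R and K139Q were each compared with MSX1 and with each other. The number of the 5 genes that passed was 0 in each of these 3 comparisons. At an unadjusted p under 0.05, 2 of the 5, 1 of the 5 and 1 of the 5 passed, against 25.7%, 13.1% and 9.19% of all genes, in K139R against MSX1, K139Q against MSX1 and K139Q against K139R. The comparisons share libraries with one another and with those above.

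THBS4 gave the largest differences of the 5 from MSX1, 0.61 in K139R (95% interval 0.17 to 1.05, limma adjusted p = 0.084) and 0.53 in K139Q (0.09 to 0.97, adjusted p = 0.24). Its groups did not overlap in either comparison, which was so for 26.5% and 20.5% of all genes. THBS4 passed in K139R against MSX1 when K139R replicate 1 was left out (0.66, adjusted p = 0.045), and without that library 26.1% of all genes passed in place of 4.32%. Its drop from Vector was 53.0% as large in K139R and 59.0% as large in K139Q as in MSX1 on the log2(value + 1) scale. The table was selected on MSX1 against Vector, which favours a larger change there. Over all genes tested, 22.1% passed as lower than Vector in MSX1, 5.44% in K139R and 9.38% in K139Q. A smaller drop in the mutants was thus not particular to THBS4, whose differences were still the 15th and 21st lowest of 533. K139Q and K139R differed in THBS4 by -0.08 (-0.52 to 0.36, adjusted p = 0.88).

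TNC differed between the mutants themselves, by -0.54 in K139Q against K139R (95% interval -0.94 to -0.15, limma adjusted p = 0.43). Its groups did not overlap, as was the case for 8.63% of all genes. Against MSX1 the TNC difference was 0.15 in K139R (-0.24 to 0.55, adjusted p = 0.60) and -0.39 in K139Q (-0.79 to 0.00, adjusted p = 0.38). None of these passed the adjusted threshold.

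COL1A1 was -0.49 in K139R against MSX1 (95% interval -0.98 to -0.01, limma adjusted p = 0.19) and -0.17 in K139Q against MSX1 (-0.66 to 0.31, adjusted p = 0.78), with overlapping groups. SERPINH1 was -0.33 in K139R (-0.78 to 0.13, adjusted p = 0.33) and 0.11 in K139Q (-0.35 to 0.56, adjusted p = 0.86). COMP was -0.20 in K139R (-0.56 to 0.16, adjusted p = 0.45) and 0.06 in K139Q (-0.30 to 0.43, adjusted p = 0.89). In K139Q against K139R the differences were 0.32 for COL1A1 (-0.17 to 0.81), 0.44 for SERPINH1 (-0.02 to 0.89) and 0.27 for COMP (-0.09 to 0.63), with limma adjusted p of 0.62, 0.53 and 0.57. A p above the threshold does not show that these genes were alike among the plasmids, and the intervals give the differences that the libraries allow.

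MSX1 transcript levels differed among the 9 plasmid libraries, so each gene was compared with them over those libraries. Pearson's r of log2(value + 1) was 0.572 for SERPINH1 (exact permutation p = 0.105), 0.341 for COL1A1 (p = 0.374), -0.406 for TNC (p = 0.275), 0.379 for THBS4 (p = 0.315) and 0.366 for COMP (p = 0.331). Adjusted over the 5 relations, p was 0.374 for each. Spearman's rho was 0.533 for SERPINH1 (exact permutation p = 0.148), 0.183 for COL1A1 (p = 0.644), -0.5 for TNC (p = 0.178), 0.467 for THBS4 (p = 0.213) and 0.383 for COMP (p = 0.313), with adjusted p from 0.354 to 0.644. Without the 2 libraries farthest from the median MSX1 level, K139R replicate 1 and K139Q replicate 2, r was 0.194, 0.217, -0.216, 0.598 and -0.119 in the order of the genes above. Leaving out single libraries moved r between 0.341 and 0.716 for SERPINH1, 0.162 and 0.475 for COL1A1, -0.604 and -0.077 for TNC, 0.156 and 0.467 for THBS4, and 0.045 and 0.778 for COMP. The highest values of SERPINH1 and COMP and the lowest of THBS4 and TNC came without MSX1 replicate 2. Without that library COMP had an exact permutation p of 0.0136 (0.0682 adjusted over the 5) and SERPINH1 one of 0.0461 (0.115 adjusted). Without K139Q replicate 2, r was 0.341 for SERPINH1, 0.162 for COL1A1, -0.077 for TNC and 0.045 for COMP. No relation passed an adjusted p of 0.05 over the 9 libraries or with 1 of them left out.

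Within groups, the picture differed between genes. With the group means removed, r with MSX1 was 0.864 for COL1A1 (exact permutation within groups, p = 0.0139) and 0.873 for SERPINH1 (p = 0.0278), each with p = 0.0694 after adjustment over the 5 genes. By the same exact permutation it was 0.564 for COMP (p = 0.218), -0.278 for TNC (p = 0.477) and -0.0737 for THBS4 (p = 0.903). In K139R, SERPINH1, COL1A1 and COMP were each highest in replicate 1 and lowest in replicate 3, as the MSX1 transcript was. In K139Q all 3 were highest in replicate 2, again as the MSX1 transcript was, but COL1A1 and COMP were lowest in replicate 1 and the transcript in replicate 3. In the MSX1 group COL1A1 had the order of the transcript, while COMP was highest in replicate 2, where the transcript was lowest, and SERPINH1 was lowest in replicate 3, where the transcript was highest. In all 3 plasmid groups the GC slope was also highest in the library with the most MSX1 transcript. It was 0.30 in MSX1 replicate 3, 0.23 in K139R replicate 1 and 0.24 in K139Q replicate 2. Within MSX1 and K139R the slope had the order of the transcript in all 3 libraries, and its part was not tested.

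**Figure D4:**
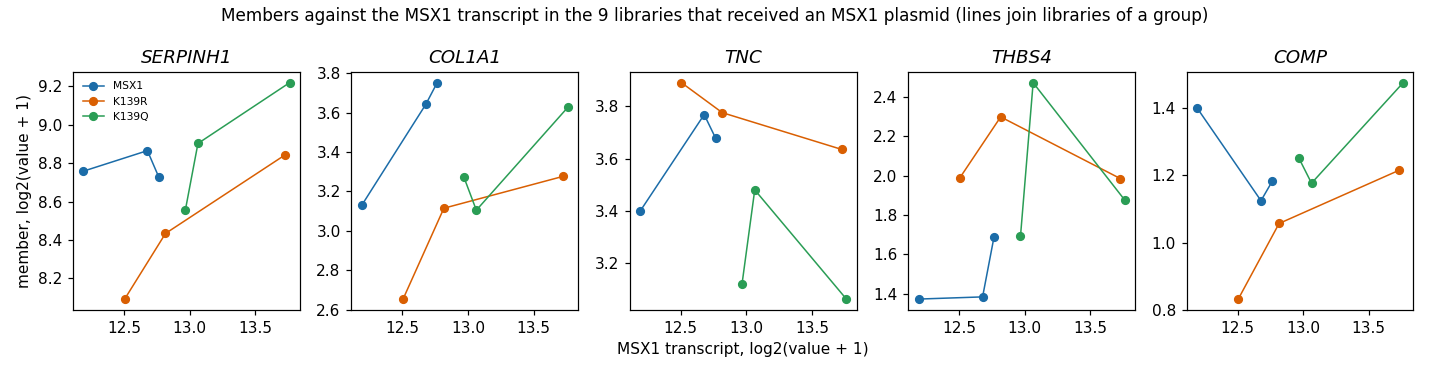
log2(value + 1) of each gene (vertical axes, not starting at 0) against log2(value + 1) of the MSX1 transcript (horizontal axis) in the 9 libraries with an MSX1 plasmid, with lines joining the 3 libraries of a group in order of MSX1. SERPINH1 and COL1A1 were lowest in K139R at the library with the least MSX1 and highest at the library with the most, and TNC ran the other way in that group.

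The genes of the table most like each of the 5 were found by Pearson's r over the 12 libraries, which share the difference between Vector and the other groups. SERPINH1 was most like the heat shock genes HSPA1A (r = 0.991), HSPA6 (0.991) and DNAJB1 (0.986), which encode cytosolic HSP70 and HSP40 chaperones, and with the group means removed r was 0.887, 0.871 and 0.802. COL1A1 was most like NRTN, a neurotrophic ligand (0.978), NOTCH3, a Notch receptor (0.973), and ADAMTS7, a metalloprotease that cleaves COMP (0.963), with 0.921, 0.916 and 0.919 after the group means were removed. TNC was most like PROCR, the endothelial protein C receptor (0.975), SYT2 (0.969) and THBD, thrombomodulin (0.968), and for THBD r fell to 0.146 with the group means removed. THBS4 was most like SELPLG (0.888), CYP1A1 (0.877) and MYH15 (0.874), with 0.591, 0.321 and 0.262 within groups. COMP was most like HSPB1 (0.947), LRRC8E (0.941) and SSTR5 (0.938), with 0.755, 0.779 and 0.803.

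Among the 5 genes themselves, SERPINH1 had r = 0.885 with COL1A1 and 0.907 with COMP over the 12 libraries, and 0.656 and 0.616 with the group means removed. TNC and COMP had r = 0.643 over the 12 libraries but -0.842 with the group means removed, so that within groups TNC was lower where COMP was higher. THBS4 had negative r with the other 4 over the 12 libraries, -0.734 with TNC for example, and 0.542 with TNC once the group means were removed. These coefficients are descriptions over 12 libraries. The libraries differed in their GC slope and their depth is unknown, and the part of either in the coefficients was not tested.

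The neighbours of these genes in matrix biology were counted from gene lists, and each count of higher genes is read against the share of all genes tested that were higher than Vector, 67.7% with MSX1, 60.0% with K139R and 64.0% with K139Q. Listed genes with a Vector mean below 1, such as COL12A1, COL16A1, THBS2, HSPA1A and CRYAB, were tested only through their plasmid groups. Of 44 collagen genes, 3 were in the table, COL1A1, COL12A1 and COL16A1, and all 3 were higher in MSX1 than in Vector at the adjusted threshold, with 2 of 3 in K139R and 2 of 3 in K139Q, near the shares of all genes. COL12A1, a collagen that coats fibrils, was 0.517 in Vector, 1.10 in MSX1, 2.30 in K139R and 1.33 in K139Q by mean. COL16A1 passed in MSX1 alone, with a mean of 1.47 there against 0.56 in Vector, 1.07 in K139R and 1.05 in K139Q. Of 32 genes of collagen folding and processing, SERPINH1 and ADAMTS14 were in the table, and ADAMTS14 was too low to test. Genes that are not in the table were not called by the authors or were not analysed here, and nothing is said of their level.

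Of 9 thrombospondins and tenascins, 5 were in the table and 4 tested, namely TNC, THBS4, COMP and THBS2. THBS2, the matricellular thrombospondin of fibroblasts, was higher than Vector in each plasmid group, with means of 0.700 in Vector, 1.31 in MSX1, 3.05 in K139R and 2.14 in K139Q. It alone of the 4 tested passed the threshold between plasmids, by 0.81 in K139R against MSX1 (limma adjusted p = 0.030). That comparison had 0 calls over all genes without MSX1 replicate 1, MSX1 replicate 2, K139R replicate 2 or K139R replicate 3, and THBS2 did not pass with the replicate block by title (adjusted p = 0.053) or by library name (adjusted p = 0.055). THBS2 and THBS4 thus lay on opposite sides of Vector in all 3 plasmid groups.

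Of 50 further matrix glycoproteins 3 were tested, and 2 of them, FBLN2 (fibulin 2) and CILP2, passed as higher in MSX1 and in K139Q, and FBLN2 and CCN3 did in K139R. Of 40 matrix proteases and inhibitors 5 were tested, and all 5 were higher in each plasmid group, where 67.7%, 60.0% and 64.0% of all genes were, among them MMP2, MMP15, MMP17 and ADAMTS7. MMP17 rose from 2.64 in Vector to 6.75, 6.36 and 6.25 in MSX1, K139R and K139Q. Of 20 proteoglycans 1 was tested, SPOCK1, which was lower in MSX1 (-0.59, limma adjusted p = 0.016) and did not pass in K139R (-0.41) or K139Q (-0.39). Of 23 matrix receptors 0 were in the table. Of 26 heat shock genes 7 were tested, and 7 of 7 were higher in each plasmid group (67.7%, 60.0% and 64.0% of all genes), with a median difference of 2.55, 1.68 and 2.15 in MSX1, K139R and K139Q, against 2.16, 1.83 and 2.26 for SERPINH1. CRYAB, a small heat shock protein, was the 1 of the 7 past the threshold between plasmids, at -0.95 in K139R against MSX1 (limma adjusted p = 0.028), and it did not pass with the replicate block by title (adjusted p = 0.053) or by library name (adjusted p = 0.055).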

How the data were processed

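RNA-seq was performed in 12 HEPM libraries, 3 per group. Stranded mRNA libraries were sequenced, and the submitters' processing notes name RSEM. The aligner's version, the annotation and the build are not given in the sources used here. The authors deposited a single table of z-scores, each gene being scaled over the 12 libraries after a natural log of value + 1. Vector and MSX1 columns were matched to samples by library name and K139R and K139Q columns by title, and replicates are numbered as in the titles. For 665 of 666 genes the values before scaling were recovered here on a grid of 0.01 and gave back the deposited score to within 5.0e-12. RN7SL1 was left out. Their unit is not stated, and no counts or depths are available to this work, so no counting interval is given.

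Values were tested with limma 3.58.1 (R 4.3.3) on log2(value + 1), which understates the change of low genes. All 12 libraries entered 1 fit by group, over the 533 genes with a group mean of at least 1, with Benjamini-Hochberg adjustment over those genes and a threshold of 0.05. Correlations and single differences used exact permutation in numpy 2.4.6, with ranks from scipy 1.17.1. The labels call the replicate number a batch. Same-numbered libraries did not deviate together (r from -0.483 to 0.180 over 18 pairs, 3 of them over 0.1), and the fit with the number as a block is an alternative. MSX1 replicates 1 and 2 carry crossed numbers in their library names, so the block was run with both numberings. GC content came from the longest GENCODE v29 transcript, for 95.7% of the genes tested. Promoter windows are from RefSeq, GRCh38.p14. Alternatives were other pseudocounts, filters, scalings, blocks and the omission of each library. The test and the recovery were tested on simulated data. The 5 genes and the lists were chosen with earlier results of these data known. All 5 are described, with the 3 most correlated genes of each and at most 4 genes of a list by mean level.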

Additional observations from a re-analysis of the deposited data

How the results depend on the processing

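Adjusted calls were recomputed for the 5 genes in 6 comparisons. The number of them past an adjusted p of 0.05 fell under quantile normalization to 3 in MSX1, 2 in K139R and 2 in K139Q against Vector, where 61.9%, 34.3% and 43.3% of all genes passed. That scaling also removes part of the shift on which the table was selected. Leaving out 1 library at a time, the number of the 5 genes that passed was 5 to 5 in MSX1, 3 to 5 in K139R and 5 to 5 in K139Q against Vector. Of all genes, 80.1% to 85.6%, 54.8% to 65.1% and 61.4% to 68.7% passed there. Between plasmids it was 0 to 1 in K139R against MSX1 and 0 to 0 in the other comparisons. The shares of all genes were 0% to 26.1% in K139R against MSX1, 0.375% to 1.88% in K139Q against MSX1 and 0.188% to 4.88% in K139Q against K139R. With the replicate block, by title or by library name, the count was 5, 4 and 5 against Vector and 0 in each comparison between plasmids. By title, 89.7%, 63.8% and 71.3% of all genes passed against Vector, and by library name 89.1%, 62.5% and 69.8%. Between plasmids 1.13%, 0.563% and 0.188% passed by title, and 0%, 0.188% and 0.188% by library name. The block changed the call of none of the 5. The calls of THBS2 and CRYAB in K139R against MSX1 were lost with either block. They were also lost without a block at a pseudocount of 0.1 (limma adjusted p = 0.056 and 0.080) and with only the groups compared (0.053 and 0.051). With the block by title and the GC trend removed, CRYAB passed (limma adjusted p = 0.037) and THBS2 did not (0.074). COMP in K139R against Vector passed with a pseudocount of 0.1 (0.70, limma adjusted p = 0.027) and with no filter (adjusted p = 0.048), and it turned to -0.17 under quantile normalization. A stricter filter, a group mean of at least 5, left COMP out.

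Differences near 0 changed sign. COMP in K139R against MSX1 became 0.11 with the GC trend removed, with the replicate block as well as without it. COMP in K139Q against MSX1 became -0.041 under quantile normalization and ranged from -0.022 to 0.147 when single libraries were left out, being below 0 without K139Q replicate 2. SERPINH1 there ranged from -0.056 to 0.28 and was also below 0 without that library. THBS4 in K139Q against K139R ranged from -0.31 to 0.083, being above 0 without K139R replicate 2 (0.026) or K139Q replicate 3. Correlations with MSX1 turned to -0.074 for THBS4 with the group means removed and to -0.12 for COMP without the 2 libraries farthest from the median. The share of all genes that passed in K139R against MSX1, 4.32%, ranged from 0% to 26.1% when single libraries were left out and was 1.13% and 0% with the block by title and by library name. The causes of these changes were not tested. Read depth is unknown, which limits what can be said of COMP, whose values lie near the pseudocount of 1.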
